A study of Arabidopsis thaliana with 28 samples.

Results

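H3K9ac, the acetylation at lysine 9 of histone H3 found over the first part of transcribed genes, was examined at 10 regulators of the shoot and root meristems of Arabidopsis thaliana. The members were named by locus, and a member counted as marked in a library when a called H3K9ac domain overlapped its annotated gene span by at least 1 bp. They were WUS (AT2G17950), CLV3 (AT2G27250), STM (AT1G62360), KNAT1 (AT4G08150), CUC1 (AT3G15170), CUC2 (AT5G53950), CUC3 (AT1G76420), WOX5 (AT3G11260), PLT1 (AT3G20840) and PLT2 (AT1G51190), 10 of the 27444 protein-coding genes on chromosomes 1 to 5. Of the 10, 3 met a domain in at least 1 of 28 libraries, and 7 met none.

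All 28 libraries came from untreated whole seedlings of the Col-0 ecotype, 10 days old, with the same anti-H3K9ac antibody, so no group carried a mutation, a transgene or a treatment. The 14 groups of 2 replicates differed in how the chromatin was profiled. PHILO ChIP-seq, a chromatin immunoprecipitation for many small samples, made up 12 groups. Of these, 5 carried a read depth as their label (10M, 5M, 2M, 1M or 0.5M), 3 a number of PCR cycles (10, 12 or 14), and 4 an input, which was 1 mg tissue or nuclei numbering 500K, 100K or 20K. The other groups were eChIP, a ChIP with a short extraction, and CUT&Tag, in which an antibody brings a transposase to the modified chromatin in place of a precipitation. The libraries asked how far an H3K9ac profile depends on reads, amplification, input and method.

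Plant meristems hold small pools of stem cells that supply every later organ. In the shoot, WUS is made in an organizing centre below the stem cells and keeps them undivided in fate, the stem cells secrete the peptide CLV3, and CLV3 in turn restrains WUS. STM and KNAT1 are homeodomain proteins of the KNOX class that keep meristem cells from differentiating, and the 3 CUC genes encode NAC transcription factors that set the boundaries between organs. In the root, WOX5 marks the quiescent centre, and PLT1 and PLT2 are AP2-domain factors of the root stem cell niche. Each of these genes is transcribed in few cells of a seedling, and in a whole-seedling library fewer marked cells and a weaker mark per cell cannot be told apart.

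The following stretches are printed to show where domains ended before or beside a member, next to a member that no domain reached. They were read from the TAIR10.1 reference, whose nuclear chromosomes are those of TAIR10, and capitals mark bases inside a called domain. The first is the 250 bases before the start of CUC3 (chr1:28674046-28674295, minus strand), of which 155 lay in the CUT&Tag replicate 2 domain. The second is the same stretch of WUS (chr2:7810812-7811061, minus strand), which met no domain. The third is the whole spacer of 264 bases from the end of CUC1 to the start of AT3G15180 (chr3:5111609-5111872, plus strand), with the 72 bases of the 10M replicate 1 domain marked. The last is the 250 bases before AT3G11270, the gene downstream of WOX5 (chr3:3528551-3528800, plus strand), with the 200 bases of the CUT&Tag replicate 1 domain marked.
CUC3: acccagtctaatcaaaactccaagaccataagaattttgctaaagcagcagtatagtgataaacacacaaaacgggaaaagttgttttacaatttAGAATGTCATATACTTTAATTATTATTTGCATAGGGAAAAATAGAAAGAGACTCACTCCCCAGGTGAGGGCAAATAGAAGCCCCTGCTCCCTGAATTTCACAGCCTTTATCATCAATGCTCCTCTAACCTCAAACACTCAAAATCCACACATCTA
WUS: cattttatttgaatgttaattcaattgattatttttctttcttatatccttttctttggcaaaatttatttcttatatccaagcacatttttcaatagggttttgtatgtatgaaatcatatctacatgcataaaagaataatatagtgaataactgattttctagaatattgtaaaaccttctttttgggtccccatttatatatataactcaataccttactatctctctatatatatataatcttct
CUC1 to AT3G15180: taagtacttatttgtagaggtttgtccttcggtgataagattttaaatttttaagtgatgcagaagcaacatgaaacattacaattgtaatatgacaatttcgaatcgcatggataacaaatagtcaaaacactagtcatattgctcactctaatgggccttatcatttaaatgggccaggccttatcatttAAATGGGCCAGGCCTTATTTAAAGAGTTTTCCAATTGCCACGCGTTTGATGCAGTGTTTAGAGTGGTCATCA
WOX5 to AT3G11270: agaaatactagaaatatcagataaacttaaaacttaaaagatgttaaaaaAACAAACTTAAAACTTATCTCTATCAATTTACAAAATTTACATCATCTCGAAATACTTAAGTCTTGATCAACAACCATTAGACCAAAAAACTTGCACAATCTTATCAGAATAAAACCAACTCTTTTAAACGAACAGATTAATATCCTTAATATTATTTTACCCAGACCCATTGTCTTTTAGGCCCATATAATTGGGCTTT

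The letters before the starts were compared with those of all genes in windows of the same length, for 2 motifs chosen after the values had been seen. TGGGCC, searched on both strands, stood in the window of 13.7% of all protein-coding genes, of 17.6% of those that both 10M libraries marked and of 6.83% of those that neither marked. It stood before 0 of the 10 members, 1 of the 27 partner genes described below and 5 of 11 marked genes that flank a member, AT3G15180 and AT3G11270 among them. TATAAA, also on both strands, stood before 7 of the 10 members and before 47.3% of all genes. The G and C content of the member windows ran from 23.6% for WUS to 37.2% for CUC3, around a median of 29.8% beside 31.2% for all genes. These matches describe letters and do not locate a bound site.

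The lists together held 370373 domains, 7813 to 15238 in each, and the ChIP reads inside the domains of a list ranged from 207252 to 7244177. The depth relative to the mean of the 10M libraries, recovered from the deposited values, ran from 3.24% to 105%. No pair of libraries shared identical counts. As a check of the tissue, the green-tissue genes RBCS1A and LHCB2.1 were marked in all 28 libraries, and the genes used in every cell, ACT2, UBQ10 and PP2AA3, in 27, 28 and 24. Of the seed storage genes, CRU3 and OLEO1 were marked in 0 libraries and SESA1 in 1, CUT&Tag replicate 1, at 1.77 times the IgG control. PYK10, a root gene, was marked in both CUT&Tag libraries and in 10M replicate 2 only.

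Across the depth series the members stayed unmarked, with 1 exception in the shallowest group. In both 0.5M libraries 31.2% of all protein-coding genes met a domain, in both 1M libraries 50.1%, in both 2M libraries 56.1%, in both 5M libraries 59.3% and in both 10M libraries 62.4%. The same counts for the members were 0 of 10 at every depth. One library at 0.5M, replicate 1, had a domain on WOX5, and the mean was 0.5 ± 0.707 members (SD, n = 2). A depth that brought a domain to most genes of the genome thus gave the members no domain in either 10M library.

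The other preparations of PHILO gave the same count. Beside 0 members in both libraries, the share of all genes was 55.2% after 10 cycles, 56.1% after 12 cycles and 57.2% after 14 cycles. It was 59.6% for 1 mg tissue, 58.5% for 500K nuclei, 59.5% for 100K nuclei and 43.9% for 20K nuclei, where replicate 2 alone had a domain on WOX5. With eChIP the share was 59% and again no member was marked. With CUT&Tag 56.3% of all genes were marked in both libraries, beside 1 member, CUC1, while replicate 1 had 1 member and replicate 2 had 3, a mean of 2 ± 1.41 (SD, n = 2).

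Summed over libraries, 6 of the 280 member and library pairs carried a domain, or 2.14%, beside 57.3% of the 768432 pairs of all protein-coding genes. A domain in at least 1 library was found for 73.3% of all genes and for 3 of the 10 members. A domain in all 28 libraries was found for 26.9% of all genes and for 0 members. The member spans ran from 820 bp for CLV3 to 3482 bp for STM with a median of 2195.5 bp, beside a median of 2078 bp for all genes.

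**Figure D1:**
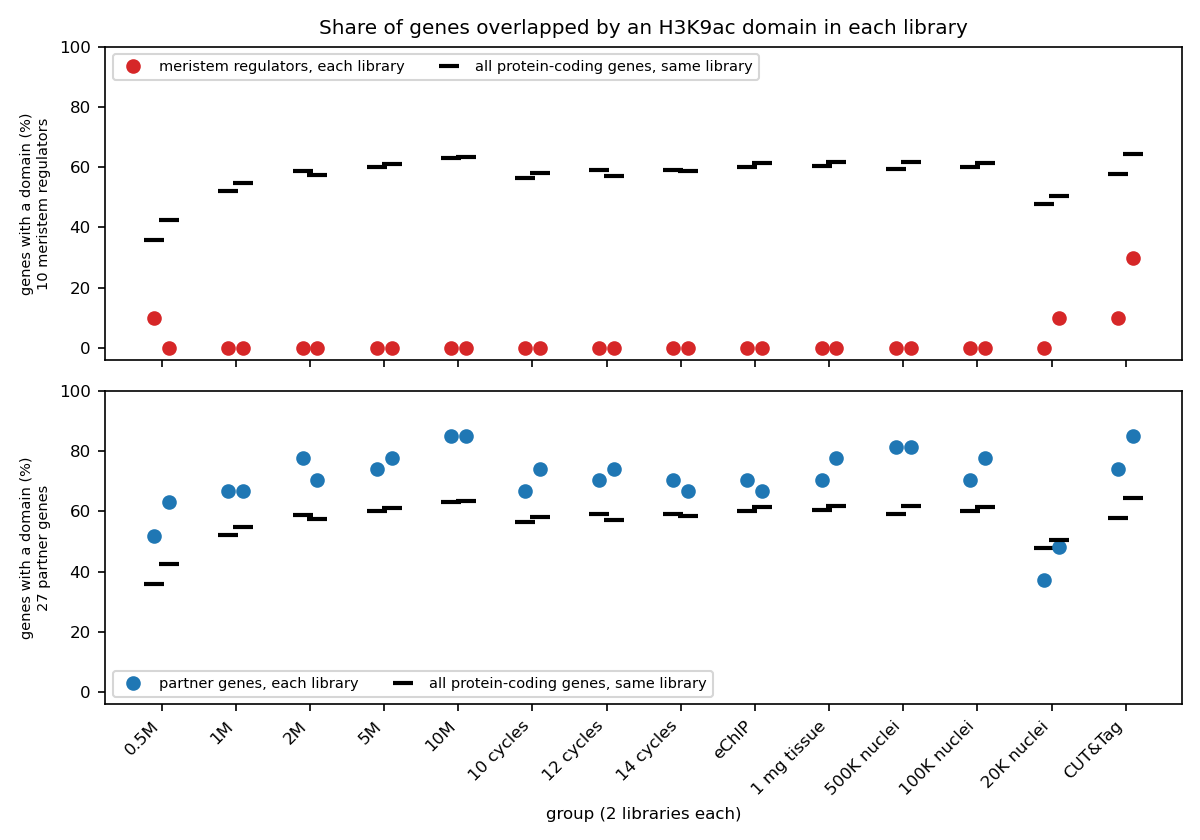
Share of genes in percent that an H3K9ac domain overlapped, for the 10 meristem regulators (red points, upper panel) and 27 partner genes (blue points, lower panel), 1 point for each of the 2 libraries of each group on the x axis, with black bars for all protein-coding genes in the same library. The red points lie at 0 in 24 of the 28 libraries, while the blue points lie above the bars in every group but 20K nuclei.

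CUC1, an organ boundary gene, was touched by a domain in both CUT&Tag libraries and in no other. In CUT&Tag replicate 1 the domain was 1000 bp wide (chr3:5111601-5112600) and held 58 ChIP reads and 72 IgG reads, which is 2.26 times the IgG control after scaling by library size. In replicate 2 it was 400 bp wide (chr3:5111601-5112000) with 77 ChIP reads and 27 IgG reads, or 3.65 times the control. The mean was 2.96 ± 0.985 (SD, n = 2). Both domains reached only the last 8 bases of CUC1, 0.438% of its span, and covered the start of AT3G15180, the next gene on the same strand. The gene end was that of the RefSeq annotation, and an overlap of 8 bases depends on where an annotation ends CUC1.

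That neighbour carried its own domain in most ChIP libraries. Near the start of AT3G15180 a domain was called in 22 of the 26 ChIP libraries, and it began 192 or 392 bases past the end of CUC1. The start itself was covered in 14 of the 28 libraries, both CUT&Tag libraries among them. In the 10M libraries it began 192 bases past CUC1 and reached 2.99 and 3.05 times the IgG control, with 182 and 179 ChIP reads. Both CUT&Tag domains overlapped the 10M domains and began 200 bp closer to CUC1, while the ChIP domains with a gap of 392 bases began past the end of the CUT&Tag replicate 2 domain.

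CUC3, the third of the boundary genes, was marked in CUT&Tag replicate 2 alone. The domain was 2200 bp wide (chr1:28672001-28674200), covered 91.3% of the gene together with its start and no start of another gene, and held 157 ChIP reads and 131 IgG reads. Its enrichment was 1.54 times the IgG control, and 5.58% of the domains in that list had a lower enrichment. CUT&Tag replicate 1 and all 26 ChIP libraries had no domain on the gene. ATL8, the next gene downstream, had a domain near its start in 26 libraries, at a median of 4.04 times the control and with an edge 2405 bases from CUC3 in both 10M libraries. CUC2, the remaining boundary gene, met no domain in any library.

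WOX5, the quiescent centre gene, was marked in 1 library of each of 3 groups. In 0.5M replicate 1 the domain was 1800 bp wide (chr3:3527601-3529400), covered 72.4% of the gene but not its start, and held 23 ChIP reads and 146 IgG reads, 3.37 times the control. In 20K nuclei replicate 2 it was 1200 bp wide (chr3:3528401-3529600), overlapped WOX5 by 40 bases and held 109 ChIP reads and 97 IgG reads, 2.17 times the control. In CUT&Tag replicate 2 it was 4200 bp wide (chr3:3525801-3530000), covered all of WOX5 with its start and held 444 ChIP reads and 329 IgG reads, 1.73 times the control. In none of these groups did the other replicate have a domain on WOX5, and each of the 3 domains also covered the start of AT3G11270 (MEE34).

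AT3G11270 itself was marked in all 28 libraries. Its domain began 360 bases past the end of WOX5 in both 10M libraries, at 4.32 and 4.62 times the control with 289 and 266 ChIP reads over 800 and 600 bp. In 0.5M replicate 2 it was 400 bp wide with 9 ChIP reads, and in CUT&Tag replicate 1 it began 160 bases past WOX5. The 3 domains on WOX5 were wider than the 10M domains at AT3G11270 and lower in enrichment. CUT&Tag replicate 2 had a median domain width of 2000 bp and 34.2 Mb covered in all, beside 1000 bp and 20.1 to 20.3 Mb in the 10M libraries, and 13.1% of its domains had a lower enrichment than the one on WOX5. Whether the wider calling has a part in these overlaps was not tested.

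**Figure D2:**
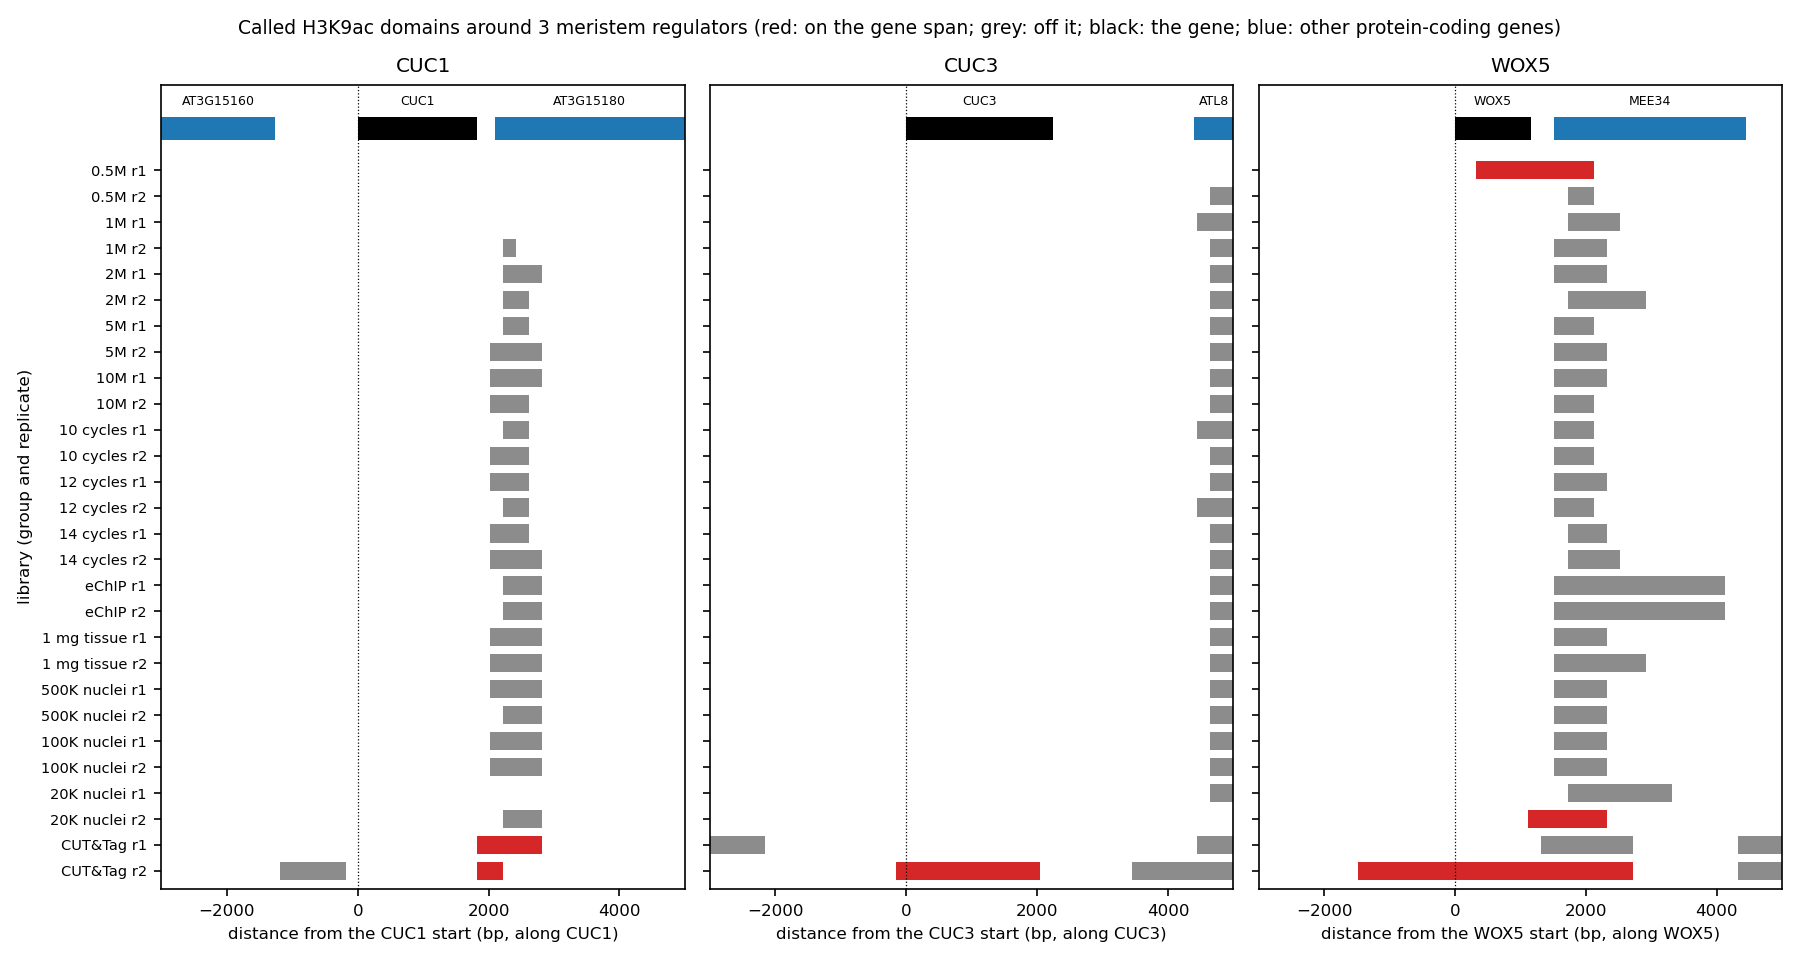
Called domains along CUC1, CUC3 and WOX5, with the distance from the start of the gene in bp along its strand on the x axis and the 28 libraries as rows, red bars for domains on the gene, grey bars for other domains, black for the gene and blue for other protein-coding genes. Only 6 red bars are drawn, and those at CUC1 and WOX5 run on over the start of the next gene, whereas the bar at CUC3 stands apart from the one at ATL8.

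WUS, CLV3, STM, KNAT1, CUC2, PLT1 and PLT2 met a domain in 0 of 28 libraries. The deposited lists hold reads only inside domains, so the level of H3K9ac at these genes has no value here, and the distance to the nearest domain is given in its place. In the 10M libraries the nearest domain lay 6270 bases from WUS, 3803 from CLV3, 1581 from STM, 4098 from KNAT1, 3103 from CUC2, 2307 from PLT1 and 3782 from PLT2, each distance the same in both replicates. Among all genes without a domain in 10M replicate 1, the median distance was 2051 bases with quartiles of 886 and 4636, and 7 of the 10 members lay above that median and 1 above the upper quartile.

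The unmarked stretches around the shoot genes were measured between the nearest domains on either side. WUS (chr2:7808871-7810811) lay in a domain-free stretch of 18200 bp in both 10M libraries, and neither of its flanking genes, AT2G17940 and AT2G17960, was marked in any library. KNAT1 (chr4:5147699-5151159) lay in a domain-free stretch of 23000 bp, and its flanking genes AT4G08140 and AT4G08160 were also marked in 0 libraries. For CLV3 (chr2:11664978-11665797) the stretch was 17800 and 17600 bp in the 2 replicates, and AT2G27260, before its start, was marked in all 28 libraries but AT2G27240, past its end, in 0. For STM (chr1:23058582-23062063) the stretch was 15400 bp, and AT1G62350, 467 bases from STM, was marked in 24 libraries at a median of 4.70 times the control. AT1G62370, on the other side of STM, was marked in all 28. STM thus lay between marked genes, CLV3 beside 1 marked and 1 unmarked gene, and WUS and KNAT1 between unmarked ones.

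Of the root genes, PLT2 (chr1:18977176-18980618) lay in the longest unmarked stretch of the 10 members, 29400 bp in both 10M libraries. PLT1 (chr3:7300444-7303693) lay in one of 19600 and 19800 bp. Its nearest domain lay 1507 to 14243 bases away over the 28 libraries, with a median of 8307. This range was wider than that of CLV3, 3803 to 4003. It was narrower than those of PLT2, 3782 to 21775, CUC2, 2903 to 18503, and KNAT1, 4098 to 35241. For CUC2 (chr5:21901704-21903854) the stretch was 11800 bp, and its neighbour AT5G53940 was marked in 26 libraries. Of the 20 genes that flank the members, 11 were marked in both 10M libraries, beside 62.4% of all genes, and 6 in all 28, beside 26.9%. The flanking genes were counted after the members' values had been seen.

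**Figure D3:**
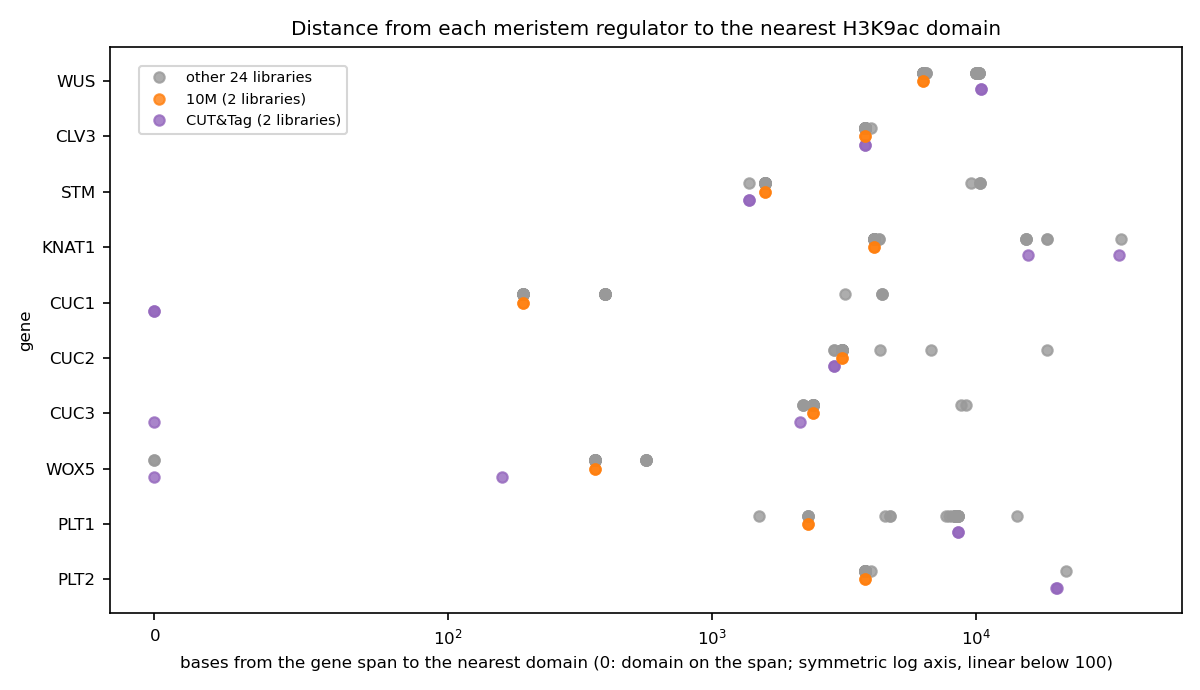
Bases from each of the 10 genes to the nearest H3K9ac domain on a symmetric log axis that is linear below 100, with 1 point for each library, orange for 10M, purple for CUT&Tag and grey for the other 24. Points at 0 are domains on the gene, 2 for CUC1, 1 for CUC3 and 3 for WOX5, and the 10M points of WUS, CLV3, STM, KNAT1, CUC2, PLT1 and PLT2 lie between 1581 and 6270.

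Presence over the 28 libraries was also compared between genes. For the 7 members without a domain, 7317 other protein-coding genes had the same pattern. CUC1 shared its pattern with 541 genes that do not share a domain with it, of which AT5G58750 and AT5G08600 were nearest in enrichment. CUC3 shared its pattern with 472 genes, AT1G10717 and AT5G47510 nearest. No gene outside its own domains had the pattern of WOX5, and AT4G28485 (DMP7) and AT5G18430 matched it in 27 of 28 libraries, among 25 genes that did so. These patterns rest on 1 to 3 libraries each.

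The genes that act with the members were marked far more often than the members themselves. A list of 27 partners held receptors of CLV3 and related kinases, relatives and partners of STM, leaf and boundary genes, HD-ZIP III and HAM factors, and root regulators. Of these, 9, or 33.3%, were marked in all 28 libraries, beside 26.9% of all genes. They were the CLV3 receptor CLV1, the HD-ZIP III genes PHB and PHV, the WUS partners HAM1, HAM2 and HAM3, the root gene SCR, PLT7 and the co-repressor gene TPL. PLT7 (chr5:26185593-26189571, plus strand) was met at its end, by a domain at chr5:26189001-26190800 in the 10M libraries. That domain covered 14.35% of the span, and the start of PLT7 was covered in 0 libraries. Another 15 were marked in some libraries, and 3, the root peptide gene CLE40, the cambium gene WOX4 and the embryo gene BBM, in 0. KNAT2, the fourth partner without a domain in either 10M library, was marked in CUT&Tag replicate 2 alone, at 1.62 times the control.

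By group, the partners marked in both libraries numbered 13 at 0.5M, 17 at 1M, 19 at 2M, 20 at 5M and 23 at 10M. They numbered 18, 19 and 18 after 10, 12 and 14 cycles, 19 for 1 mg tissue, and 22, 19 and 10 for 500K, 100K and 20K nuclei. For eChIP the count was 18 and for CUT&Tag 20. In the deepest group this is 23 of 27 partners beside 62.4% of all genes, and with 20K nuclei 10 of 27 beside 43.9%. Partner spans ran from 551 bp for CLE40 to 6394 bp for KNAT2. The middle one, ACR4, had 3535 bp, beside medians of 2078 bp for all genes and 2195.5 bp for the members. A longer span can meet a domain more easily, and these counts were not adjusted for length.

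CLV1 and HAM3 show the range of a strongly marked partner. HAM3, a GRAS factor, reached 9.14 and 10.2 times the control in the 10M libraries, 13.3 and 19.9 at 0.5M, 5.64 and 6.44 with eChIP, 3.54 and 4.39 with 20K nuclei and 2.92 and 3.90 with CUT&Tag. CLV1 reached 6.16 and 6.18 at 10M, 5.48 and 12.7 at 0.5M, 4.44 and 5.33 with eChIP, 2.35 and 2.77 with 20K nuclei and 3.46 and 3.80 with CUT&Tag. In both genes the 20K nuclei and CUT&Tag values lay below the 10M values without overlap, a separation that was not counted over all genes. Whole lists shifted the same way. The median log2 enrichment of a list was 2.14 and 2.09 at 10M and 2.53 and 2.96 at 0.5M. It was 1.63 and 1.65 with eChIP, 1.30 and 1.33 with 20K nuclei, and 1.40 and 1.21 with CUT&Tag. All lists, CUT&Tag included, were set against the same IgG control, so enrichment is not a like measure across methods. Mean domain widths were 3400 bp at 10M and 10800 bp with CUT&Tag for CLV1, and 2000 and 6200 bp for HAM3. The 6 values on members ran from 1.54 to 3.65. Among the weaker partners, the auxin response factor gene ARF5 reached 1.69 and 1.77 at 10M, and PLT5 1.76 and 1.88.

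**Figure D4:**
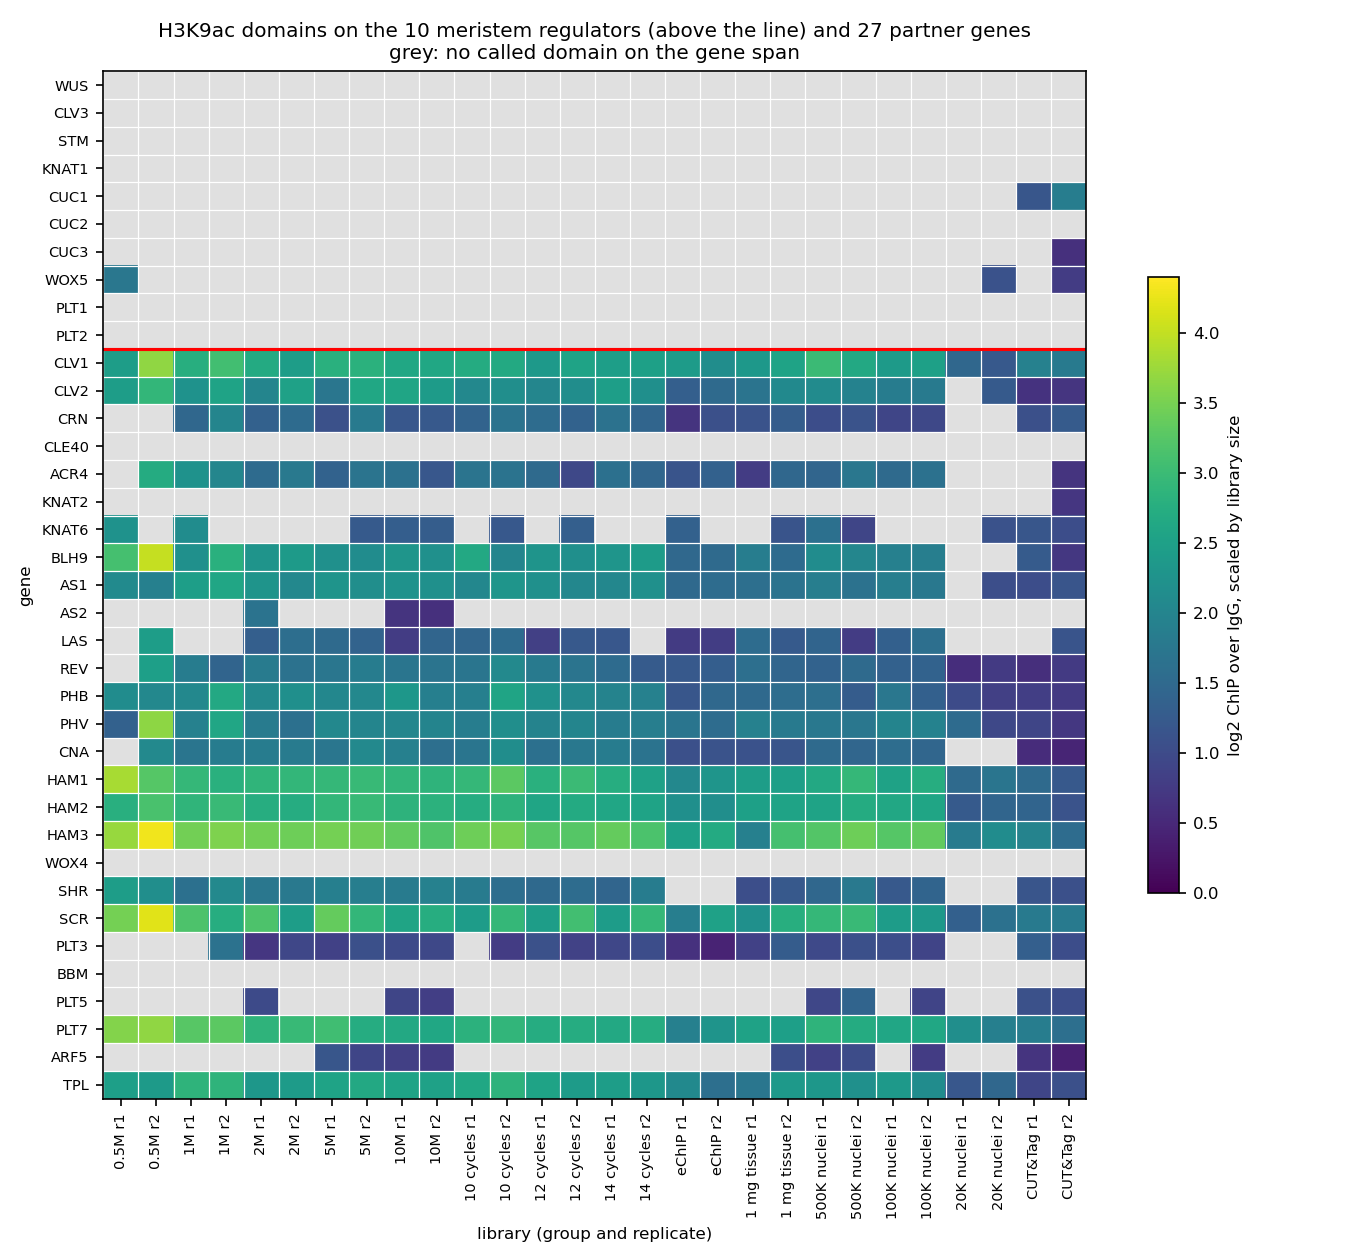
Log2 of ChIP over IgG reads in the called domains of each gene, scaled by library size (colour), for the 10 meristem regulators above the red line and 27 partner genes below it, by library on the x axis, with grey for no called domain. The upper block is grey except for 6 cells, at CUC1, CUC3 and WOX5, and CLE40, WOX4 and BBM are grey throughout.

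Within the families of the members, other genes were marked, and these lists were drawn up after the values had been seen. Of 8 KNOX genes, KNAT3, KNAT4 and KNAT5 were marked in all 28 libraries, KNAT7 in 18, KNAT6 in 14, KNAT2 in 1, and STM and KNAT1 in 0. Of 15 WOX genes, 11 were marked in 0 libraries, and the others were WOX13 with 27, WOX2 with 22, WOX1 with 8 and WOX5 with 3. Of 8 genes of the PLT and ANT family, PLT7 was marked in 28, ANT in 27, PLT3 in 22, PLT5 in 8, and PLT1, PLT2, BBM and AIL1 in 0. The start was covered in 0 libraries for PLT7, in 3 for ANT, and in 2 each for PLT3 and PLT5. In these 3 families WUS, STM, KNAT1, PLT1 and PLT2 were among the genes at 0 libraries, and WOX5 was not.

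The position of the domains on the partners differed between methods. In the 10M libraries the domain edge on the side of the start lay at a median of 59 bases downstream of it, over 23 partners, and a domain covered the start of 4 partners in both libraries, beside 27.2% of all genes. In the CUT&Tag libraries the median edge lay at -994.5 and -937 bases, where a negative value is upstream, and 15 partners had the start covered in both, beside 48.2% of all genes. For the members, the start was covered in 2 of the 6 cases, CUC3 and WOX5, both in CUT&Tag replicate 2.

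Counts were then compared between groups in regions that held a domain in each of the 4 libraries of a comparison, with edgeR's quasi-likelihood test over all regions. A library's count for a region is the sum over the domains called in that library, so a difference holds the width called as well as the density of reads, and widths are given beside the values. A second fit took covered length into account. The comparisons of 0.5M, 1 mg tissue, eChIP and CUT&Tag share the 10M libraries and are not independent of each other. No region lay within a member alone. CUC1 and WOX5 entered only where the domain of their neighbour was joined with their own, and the other 8 members entered no comparison. In the region of WOX5 and AT3G11270, CUT&Tag gave 50.8 and 97.2 counts per 1e+06 counts tested (CPM), and 10M gave 48.6 and 41.5, over 1400 and 4200 bp against 800 and 600 bp. The groups did not overlap, a separation that was not counted over all regions. The log2 difference of 0.90 (SE 0.300, n = 2 per group) had an edgeR adjusted p of 0.0542, while DESeq2 gave an adjusted p of 0.016. With covered length taken into account the edgeR difference turned to -1.04 and passed the threshold. It was 0.34 without CUT&Tag replicate 2 and 1.25, past the threshold, without CUT&Tag replicate 1. In the region of CUC1 and AT3G15180 the log2 difference was -0.24 (SE 0.301) with an edgeR adjusted p of 0.536, and the groups overlapped. It turned to 0.21 without CUT&Tag replicate 2 and was -0.66, past the threshold, without CUT&Tag replicate 1.

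For 20K against 500K nuclei, the region of WOX5 and AT3G11270 had 67.6 and 73.7 CPM against 48.4 and 54.2, over 1600 and 1200 bp against 800 bp in both. The log2 difference was 0.46 (SE 0.179) with an edgeR adjusted p of 0.414, and with covered length taken into account it was -0.32, again not called. Over all regions the test called 5 of 9327, or 0.0536%, all higher in 20K nuclei, 1078 had an unadjusted p under the 0.05 threshold, and DESeq2 called 21, 16 higher and 5 lower. No partner was called among 11 tested, by edgeR or by DESeq2, and HAM3 alone had an unadjusted p under the 0.05 threshold, at 0.0143.

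In the depth comparison, 0.5M against 10M, 198 of 6493 regions were called, or 3.05%, 74 higher and 124 lower at 0.5M. Of 14 partners tested 1 was called. PLT7, a PLETHORA gene of the shoot and root, had 313 and 312 CPM at 0.5M against 189 and 189 at 10M, a log2 difference of 0.71 (SE 0.147) with an edgeR adjusted p of 0.0198. Its region, chr5:26189001-26190800, lay over the end of PLT7 and past it, without the start. The 0.5M values rest on 62 and 53 reads over 1400 and 1600 bp, beside 1800 bp in both 10M libraries, and the call was lost without either 10M library, without 0.5M replicate 1, with covered length taken into account (log2 difference 0.98) and with the replicate number as a block, where the edgeR adjusted p was 0.0857. The region count itself fell to 4 without 10M replicate 1 and to 34 without 10M replicate 2.

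For 1 mg tissue against 10M, 27.4% of 13231 regions were called, 1478 higher and 2146 lower with 1 mg tissue. Of 19 partners 11 were called, all lower, and the median log2 difference of the 19 was -0.22 beside 0.01 over all regions. The receptor-like kinase gene CRN had 40.1 and 42.8 CPM against 71.3 and 88.9 (log2 difference -0.96, SE 0.123, edgeR adjusted p 0.000461). Its domains were 1400 bp wide in both 1 mg libraries and 2600 and 3200 bp at 10M, and with covered length taken into account the difference turned to 0.10. The root gene SHR had 29.0 and 39.4 against 62.1 and 62.4 (-0.87, SE 0.131, adjusted p 0.00115), BLH9, a BELL homeodomain partner of STM, 28.1 and 30.5 against 48.7 and 47.1 (-0.72, SE 0.113, adjusted p 0.00148), and PHB 68.0 and 66.8 against 90.4 and 103 (-0.53, SE 0.0879, adjusted p 0.00202). None of these 4 overlapped between groups, but they were picked by smallest adjusted p, and such separation was not counted over all regions. With covered length taken into account 1 of the 19 partners was called and all regions gave 12 higher and 94 lower, while the median of the partners was again -0.22. SHR then had -0.55, BLH9 -0.55 and PHB -0.47, none of them called. Without 10M replicate 1 the partners called numbered 7.

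For eChIP against 10M, of 12663 regions 27.8% were called, 1482 higher and 2032 lower with eChIP. Of 19 partners 13 were called, 12 lower and 1, the GRAS gene LAS, higher, and the median log2 difference of the 19 was -0.33 beside 0.01 over all regions. LAS was not called higher with DESeq2 (adjusted p 0.0534), with covered length taken into account or without either 10M library. HAM1 had 136 and 138 CPM against 190 and 190 (log2 difference -0.49, SE 0.0628, edgeR adjusted p 0.00186), CRN 44.6 and 38.1 against 71.8 and 89.4 (-0.99, SE 0.144, adjusted p 0.00300), PHB 62.2 and 61.8 against 91.0 and 104 (-0.67, SE 0.0977, adjusted p 0.00302) and HAM3 184 and 199 against 258 and 238 (-0.40, SE 0.0706, adjusted p 0.00668). These 4 did not overlap between groups, though they too were picked by smallest adjusted p, and the separation was not counted over all regions. The domains of CRN were 1800 and 1200 bp wide with eChIP against 2600 and 3200 bp, those of PHB 1800 and 1600 against 1600 and 2200 bp, those of HAM1 2400 and 2200 against 2400 bp, and those of HAM3 2000 bp throughout. With covered length taken into account 4 partners were called, all lower, and all regions gave 58 higher and 1676 lower. HAM1 at -0.43 and HAM3 at -0.40 were among the 4, whereas PHB at -0.53 and CRN at -0.0049 were not. The partners called numbered 3 without 10M replicate 1, HAM3 being one that was lost, and 6 without 10M replicate 2.

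For CUT&Tag against 10M, 47.4% of 8236 regions were called, 2086 higher and 1818 lower with CUT&Tag, and with total-count scaling 1500 higher and 2620 lower. Of 20 partners 12 were called, 9 higher and 3 lower. The region of the leaf gene AS1, a MYB factor, had 189 and 204 CPM against 125 and 109 (log2 difference 0.91, SE 0.0985, edgeR adjusted p 0.00236). ARF5 had 85.5 and 128 against 35.2 and 34.5 (1.78, SE 0.211, adjusted p 0.00288), PLT5 52.8 and 80.3 against 23.7 and 27.01 (1.57, SE 0.225, adjusted p 0.00447), and the receptor-like protein gene CLV2 27.97 and 27.8 against 74.7 and 68.1 (-1.20, SE 0.144, adjusted p 0.00291). These 4 did not overlap between groups, but they were picked by smallest adjusted p, and the separation was not counted over all regions. In the region of AS1 the domains came to 7000 and 7400 bp with CUT&Tag and 2200 and 1800 bp at 10M. The 10M domains on AS1 itself were 1600 and 1400 bp wide, so the 10M values of this region also hold a domain off the gene. The domains of ARF5 were 3600 and 6600 bp beside 1600 bp, and those of PLT5 2000 and 3600 bp beside 1000 and 1200 bp. In the region tested for CLV2 the domains were 1200 and 1400 bp wide beside 800 bp. The CUT&Tag domains on CLV2 itself reached 3400 bp, so the region leaves out a further domain called on the gene. With covered length taken into account 16 of the 20 partners were called, all lower, and all regions gave 91 higher and 4604 lower. AS1 turned to -0.95, CLV2 was at -1.91, and ARF5 at 0.12 and PLT5 at 0.21 were no longer called. Without either 10M library 6 partners were called.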

How the data were processed

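H3K9ac was profiled in whole seedlings in 28 libraries, 2 per group, with groups and replicate numbers taken from the titles. The labels do not say that replicates came from separate cultures, so p-values measure the spread between these samples. The authors aligned reads to TAIR10 with Bowtie2 and called domains against IgG in each library with epic2, and the submitters' processing notes name SICER 0.0.52 and deepTools 3.5.2. Window, gap and duplicate settings were not given in the sources used here. All borders lay on a 200 bp grid. The deposited lists give whole-number counts of ChIP and IgG reads for each domain, a log2 fold change that the authors scaled by library size, a deposited p-value and FDR, and a deposited score, which was not used. All 58882 intervals found in 2 or more lists had 1 IgG count, so 1 control served all lists, and the library-size ratio was recovered from the counts and the log2 fold change. Without molecular identifiers, PCR copies cannot be separated, and read counts cover counting error only.

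Gene spans and strands came from RefSeq (TAIR10.1), and all 10 members and 27 partners matched by locus. Enrichment is summed ChIP over summed IgG reads of the domains on a gene, each divided by library size. Regions were merged domains of 4 libraries with a domain and at least 10 ChIP reads in each, each library's count being summed over its own domains in the region, tested with edgeR 4.0.16 (TMM, quasi-likelihood, adjusted p of 0.05, Benjamini-Hochberg) after a check on simulated counts, with DESeq2 1.42.0 as an alternative. Alternatives were another scaling, no minimum count, a covered-length offset, regions covered at least 80% in each library, a replicate block and leaving out each library. Members were named in every case, called partners at most 4 per comparison by smallest adjusted p, and partners without a domain at 10M by name. LAS, HAM3 with 20K nuclei, and the partners whose enrichment is given by group were picked after their values were seen. For likeness, the 2 genes agreeing in most libraries were taken, ties by nearest mean log2 enrichment. The members and lists were chosen with earlier results of these data known. Domains of organelle genomes were not used here.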

Additional observations from a re-analysis of the deposited data

How the results depend on the processing

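The 6 member and library pairs with a domain fell to 2 when the domain had to cover the annotated start and to 3 when it had to cover at least 50% of the span. They fell to 4 with a log2 fold change of at least 1. This lost CUC3 and WOX5 in CUT&Tag replicate 2, at 0.618 and 0.790, the only domains that covered a member's start, and the CUT&Tag mean fell from 2 to 1. With 1000 bp added before the start or an FDR of at most 1e-05 the count stayed at 6. Leaving out each library gave 3 to 6, with 3 without CUT&Tag replicate 2. The 535 partner pairs fell to 123 and 235 under the start and span rules and ranged from 512 to 525 without each library. CUC1 enrichment ranged from 2.26 to 3.65 without each CUT&Tag library.

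Regions called moved past 1.5 times as follows. With DESeq2 they numbered 394 for 0.5M and 21 for 20K nuclei. With the covered-length offset they numbered 0 for 0.5M (1577 at an unadjusted p under 0.05 by edgeR), 106 for 1 mg tissue and 1734 for eChIP, and the log2 differences turned to 0.10 for CRN with 1 mg tissue and to -0.95 for AS1 with CUT&Tag. The offset moved the median of all regions to 0.32 for 0.5M, -0.23 for eChIP and -0.60 for CUT&Tag, and total-count scaling moved it to -0.16 for CUT&Tag. In regions covered at least 80% in each library fewer regions were tested. The counts were 5 of 720 for 0.5M, 2031 of 5898 for 1 mg tissue, 187 of 259 for CUT&Tag, 51 of 1218 for 20K nuclei and 1622 of 3796 for eChIP. The share called was thus lower than over all regions for 0.5M and higher for the other comparisons. Leaving out 1 library gave 4 to 151 for 0.5M, 2088 to 3624 for 1 mg tissue, 1397 to 4988 for eChIP, 3 to 1168 for 20K nuclei and 1595 to 5762 for CUT&Tag. The highest 20K count came without 20K nuclei replicate 2, and 1109 were called without replicate 1, where the lone library was assumed to vary like the other group. The causes of these shifts were not tested.

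Same-numbered libraries deviated together with correlations of -0.041 to 0.0218. With 2 libraries per group this cannot show whether equal numbers share a batch, and the labels do not say. With the replicate block the counts were 41 for 0.5M, 57 for 20K nuclei, 3726 for 1 mg tissue, 3487 for CUT&Tag and 3359 for eChIP. Depth limits the 0.5M lists most, where a domain held as few as 7 ChIP reads, and a gene outside every domain has no count in any list.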
